A study of Homo sapiens with 30 samples.

Results

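The 10 genes described here, HNRNPA1, HNRNPA2B1, HNRNPC, HNRNPD, HNRNPDL, HNRNPH1, HNRNPK, HNRNPM, HNRNPR and HNRNPU, encode major heterogeneous nuclear ribonucleoproteins (hnRNPs). They were taken by name from a table of 61487 genes, and all 10 passed the filter on low counts. The table came from RNA-seq of 30 cultures of eHAP FNLS, haploid human cells of the HAP1 lineage with the FNLS base editor. Every culture was given either the solvent DMSO or 2 nM pladienolide B (PB), a compound that inhibits the spliceosome through its SF3b complex, for 3 h. The 5 genotypes were control cells with a non-targeting guide RNA, PHF5A 2xTL (a 6-nt insertion), SF3B1 T1080I, SUGP1 E554K and SUGP1 G603N, with 3 libraries per genotype and treatment. Each mutant carried its own targeting guide. PHF5A and SF3B1 are SF3b subunits, while SUGP1, which has a G-patch domain, acts with SF3B1. Each mutant was represented by 3 clones, while the control libraries were replicates of 1 line, so the control spread is between cultures and the mutant spread between clones. The series set out to examine splicing in these PB-resistance mutants, and the gene-level counts used here show abundance and not splicing.

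hnRNPs coat nascent transcripts in the nucleus. They act in part as counterweights to SR proteins at splice sites, and many also shape RNA export, stability and translation. Several hnRNP genes are known to tune their own mRNA through alternative exons whose inclusion or skipping marks the transcript for nonsense-mediated decay. 

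Total counts ran from 3.16e+07 to 7.5e+07 per library, and the 10 genes took 1.00 to 1.24% of them. The smallest count of any of these genes in any library was 18056, a depth at which counting error is small. Values in CPM are counts per 1000000 counts, of the scaled library for the hnRNP genes and of the unscaled library total for markers. Markers of blood cells were near 0, with a median of 0.133 CPM for PTPRC, although KIT had a median of 10.8 CPM. Of the mesenchymal markers read, VIM had the highest median (282 CPM) and COL1A2 the lowest (0.38 CPM). Of the neural markers these were SOX2 (889 CPM) and NEUROD1 (0.093 CPM), and of the epithelial markers KRT18 (35.1 CPM) and KRT19 (0.017 CPM). No marker set defines eHAP cells, and these values only describe them.

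Of the 10 genes, 4 passed the test in at least 1 of 17 comparisons. HNRNPDL was higher with PB in control, in SUGP1 E554K and over both SUGP1 mutants. HNRNPC and HNRNPR were higher and HNRNPU lower only over both SUGP1 mutants. There 3.91% of all genes were called higher and 8.05% lower. Of 20 alternative analyses, 7 lost the HNRNPC call, 3 that of HNRNPR and 16 that of HNRNPU. In SUGP1 E554K alone, 5 of 13 alternatives called HNRNPC and 4 of 13 called HNRNPR. How many of all genes passed in at least 1 comparison was not counted. In hg38 and GENCODE 29, HNRNPDL (ENSG00000152795) lies on chromosome 4 from 82422564 to 82430408, with 10 annotated transcripts of which 4 are marked for nonsense-mediated decay and 0 retain an intron. HNRNPC (ENSG00000092199, chromosome 14, 21209136 to 21269494) has 33 transcripts, 1 marked for decay and 6 with a retained intron. HNRNPR (ENSG00000125944, chromosome 1, 23303771 to 23344336) has 13, 1 marked for decay. HNRNPU (ENSG00000153187, chromosome 1, 244840638 to 244864560) has 31, of which 9 are marked for decay and 10 retain an intron. Gene counts sum over all of them.

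The promoters of these 4 genes are shown because these are the genes that passed. RefSeq (GRCh38.p14) held promoter entries for the other members as well, except HNRNPA1. Each window runs from 250 bases before to 50 bases after the RefSeq start nearest the GENCODE start, and all 4 lie on the minus strand: chr4:82430413-82430712 for HNRNPDL, chr14:21269393-21269692 for HNRNPC, chr1:23344235-23344534 for HNRNPR and chr1:244864494-244864793 for HNRNPU. Sequences read 5′ to 3′ on the gene's strand, and capitals mark matches, on either strand, to the CCAAT box, to the GC box GGGCGG or to the TATA element TATAAA.
HNRNPDL: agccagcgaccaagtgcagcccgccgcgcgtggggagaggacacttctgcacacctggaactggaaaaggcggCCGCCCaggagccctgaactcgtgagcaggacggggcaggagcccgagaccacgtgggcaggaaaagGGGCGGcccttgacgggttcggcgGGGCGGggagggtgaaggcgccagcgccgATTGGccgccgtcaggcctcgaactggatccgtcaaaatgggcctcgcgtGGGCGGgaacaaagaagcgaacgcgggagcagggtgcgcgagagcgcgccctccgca
HNRNPC: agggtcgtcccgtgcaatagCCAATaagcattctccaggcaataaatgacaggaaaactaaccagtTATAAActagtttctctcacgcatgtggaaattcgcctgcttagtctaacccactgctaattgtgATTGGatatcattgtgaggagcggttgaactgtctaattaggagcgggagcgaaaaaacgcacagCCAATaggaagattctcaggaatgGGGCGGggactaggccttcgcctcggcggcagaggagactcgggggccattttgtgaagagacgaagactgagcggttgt
HNRNPR: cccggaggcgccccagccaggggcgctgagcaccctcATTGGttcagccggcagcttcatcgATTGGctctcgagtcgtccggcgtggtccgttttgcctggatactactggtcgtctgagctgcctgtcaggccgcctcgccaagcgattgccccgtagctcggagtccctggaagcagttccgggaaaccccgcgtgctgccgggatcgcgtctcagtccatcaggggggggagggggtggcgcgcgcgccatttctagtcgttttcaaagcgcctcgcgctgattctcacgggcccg
HNRNPU: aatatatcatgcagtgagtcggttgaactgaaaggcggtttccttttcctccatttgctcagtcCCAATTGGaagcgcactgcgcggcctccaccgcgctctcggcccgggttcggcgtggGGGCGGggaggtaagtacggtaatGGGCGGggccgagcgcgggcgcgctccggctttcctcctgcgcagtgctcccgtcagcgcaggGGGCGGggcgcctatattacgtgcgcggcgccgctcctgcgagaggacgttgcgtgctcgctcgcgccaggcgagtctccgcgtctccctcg
The HNRNPDL window held 4 matches to GGGCGG and 1 to CCAAT. The HNRNPC window held 3 matches to CCAAT, 1 match to GGGCGG and 1 match to TATAAA. The HNRNPR window held 2 matches to CCAAT, and the HNRNPU window held 3 matches to GGGCGG and 2 to CCAAT, the last 2 overlapping on opposite strands. The 4 windows therefore had at least 1 match to CCAAT each. Among the other members with an entry, HNRNPA2B1 had 1 CCAAT match, and HNRNPD, HNRNPH1, HNRNPK and HNRNPM had 0. Of all 35116 RefSeq promoter windows of this length, 34.6% held a CCAAT match, 45.0% a GGGCGG match and 11.5% a TATAAA match. The ETS motif CCGGAAG was also searched. It had 0 matches in each of the 4 windows shown and was found in 10.3% of all windows. GC content was 69.7% in HNRNPDL, 66.3% in HNRNPR, 67.0% in HNRNPU and 49.3% in HNRNPC, against a median of 58.7% over all windows. A match is only a run of letters.

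All 10 genes were highly expressed, and their levels varied little. Across the 30 libraries the highest value of a gene was 1.30 (HNRNPK) to 1.64 (HNRNPDL) times its lowest. HNRNPA1, a shuttling repressor of splice sites, had a median of 2118 CPM (lowest 1727, highest 2689). Its close relative HNRNPA2B1 had a median of 2033 CPM (1657 to 2622). HNRNPU, a nuclear matrix protein that binds chromatin and RNA, had 1224 CPM (985 to 1408). HNRNPC, which stays in the nucleus and binds uridine tracts, had 1130 CPM (952 to 1484). By median CPM these 4 genes stood above the other 6, although the ranges of HNRNPC and HNRNPU overlapped that of HNRNPK.

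The remaining 6 genes had lower medians. HNRNPK, a KH-domain protein that binds cytosine-rich RNA, had 945 CPM (819.6 to 1062). HNRNPD, which binds AU-rich elements of unstable mRNAs, had 791 CPM (659.8 to 938), and its relative HNRNPDL, whose gene lies close to it on chromosome 4, had 694 CPM (575 to 942). HNRNPM, a splicing regulator, had 738 CPM (620.3 to 843). HNRNPH1, which binds guanine runs, had 699 CPM (586.5 to 791). HNRNPR, a relative of SYNCRIP, had 594 CPM (499.7 to 715).

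Per kilobase of the length in the authors' table the order changed. HNRNPA1 was again highest at a median of 316 CPM per kb, followed by HNRNPK at 186, HNRNPA2B1 at 161, HNRNPC at 155, HNRNPM at 132, HNRNPDL at 126 and HNRNPD at 113. HNRNPH1 at 73.7, HNRNPR at 68.2 and HNRNPU at 54.4 CPM per kb were lowest. The length used is 97.1% of the gene's span for HNRNPA1 and 94.1% for HNRNPU, so for these nearly all intronic sequence lies in the counted length. It is 70.5% for HNRNPDL, 21.5% for HNRNPR and 12.1% for HNRNPC. The length used for HNRNPU was 22512 bases, against 5095 for HNRNPK.

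**Figure D1:**
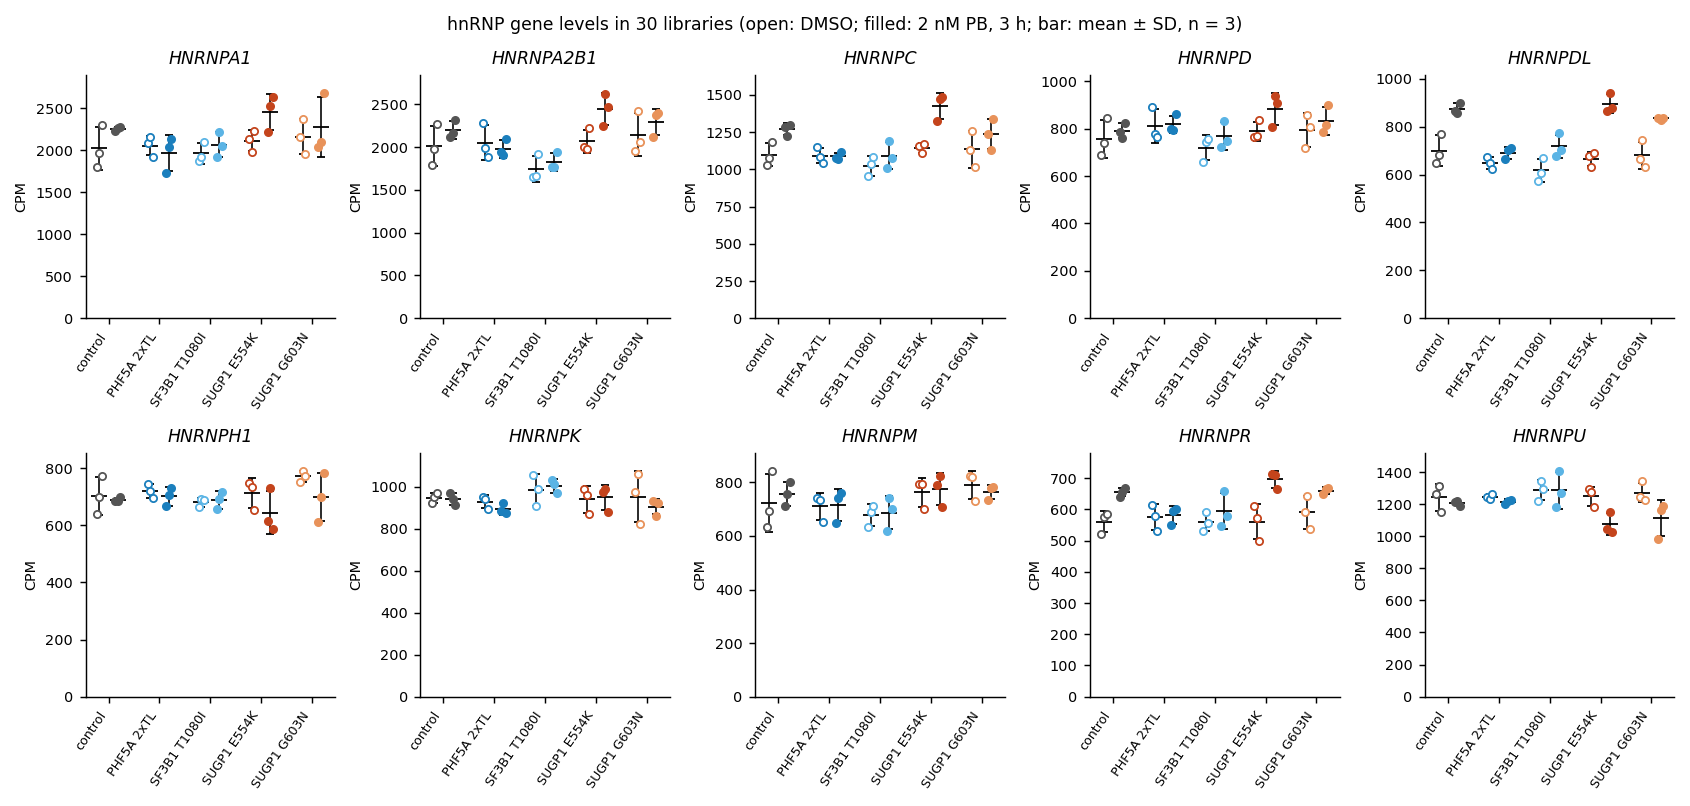
Level of each hnRNP gene in CPM (vertical axes, from 0) in every library, by genotype. Open points are DMSO and filled points PB libraries, and bars give mean ± SD (n = 3). HNRNPDL reached 829 to 942 CPM in the PB libraries of control and both SUGP1 mutants and at most 772 CPM in every other library.

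Without drug, the mutants were first compared with control. None of the 10 genes passed the test in any of the 4 mutants, nor between SUGP1 E554K and SUGP1 G603N (edgeR's quasi-likelihood test with Benjamini-Hochberg adjustment over 31495 genes, here called edgeR; unadjusted p under 0.05 for 0 genes and DESeq2 calls for 0 genes in each of the 5 comparisons). Over all genes the share called by edgeR was 0.00953% for PHF5A 2xTL, 0.0% for SF3B1 T1080I, 0.0% for SUGP1 E554K, 0.00635% for SUGP1 G603N and 0.0% between the SUGP1 mutants. In the same order the share with an unadjusted p under 0.05 was 4.48, 3.62, 3.85, 5.23 and 4.34%, and the share called by DESeq2 0.136, 0.223, 0.00318, 0.0222 and 0.00953%. Here and below, DESeq2 shares are over the genes to which DESeq2 gave an adjusted p. These numbered 19280 to 31492 by comparison, so DESeq2 and edgeR shares have unlike denominators. The lowest log2 difference was that of HNRNPA2B1 in SF3B1 T1080I, with 1657, 1659 and 1918 CPM against 1795, 1977 and 2268 CPM in control (-0.21 ± 0.11, SE). Those groups overlapped. The highest was that of HNRNPH1 in SUGP1 G603N, with 754, 791 and 772 CPM against 641, 699 and 772 CPM (0.13 ± 0.10), which also overlapped.

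PB was then compared with DMSO within each genotype. In control, HNRNPDL rose 1.25-fold and was the only one of the 10 genes that passed the test. It had 647, 681 and 771 CPM in the DMSO libraries and 867, 859 and 899.7 CPM in the PB libraries. All PB values lay above all DMSO values, and in bulk RNA more expressing cells and more RNA per cell cannot be told apart (log2 fold change 0.32 ± 0.09, adjusted p = 0.039, edgeR). Over all genes 0.987% were called higher and 3.31% lower in this comparison. DESeq2 called 1 of the 10, beside 8.95% of the 21722 genes to which it gave an adjusted p. The HNRNPDL call was lost when any 1 control library other than DMSO library 3 was left out and when low counts were not filtered (adjusted p 0.00329 to 0.21 over the alternatives).

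The other 9 genes did not pass in control, where 3 of the 10 had an unadjusted p under 0.05 beside 13.8% of all genes. HNRNPC had 1031, 1078 and 1182 CPM in DMSO and 1285, 1223 and 1297 CPM in PB (log2 0.21 ± 0.10, adjusted p = 0.318, edgeR). HNRNPR had 521, 574 and 585 CPM in DMSO and 641, 656 and 669 CPM in PB (log2 0.23 ± 0.10, adjusted p = 0.258, edgeR). For both genes the PB and DMSO libraries did not overlap. With 3 libraries against 3, such separation can also arise without a change, and its share over all genes was not counted. HNRNPU was also separated in PHF5A 2xTL, at log2 -0.04 ± 0.09. The median log2 fold change of the 10 genes was 0.10, against 0.01 over all tested genes, and it ran from -0.04 (HNRNPU) to 0.32 (HNRNPDL).

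In SUGP1 E554K, HNRNPDL rose 1.35-fold. It had 677, 632 and 688 CPM in DMSO and 866, 942 and 879.8 CPM in PB, without overlap (log2 0.43 ± 0.09, adjusted p = 0.00502, edgeR). It was the only one of the 10 genes called, beside 1.02% of all genes called higher and 3.3% lower (5 of the 10 had an unadjusted p under 0.05, beside 16.1% of all genes). When only these groups were fitted it did not pass (adjusted p = 0.124). HNRNPC, at 1159, 1106 and 1169 CPM in DMSO and 1324, 1470.3 and 1484 CPM in PB, lay just outside the threshold (log2 0.32 ± 0.10, adjusted p = 0.0591, edgeR). So did HNRNPR, at 609.7, 573 and 499.7 CPM in DMSO and 715, 709.9 and 666 CPM in PB (log2 0.31 ± 0.10, adjusted p = 0.0638, edgeR). Neither gene's groups overlapped.

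With the clone as a block, all 3 of these genes passed in SUGP1 E554K, HNRNPC with adjusted p = 0.0281 and HNRNPR with adjusted p = 0.0162 (edgeR), beside 3.13% of all genes called higher and 8.18% lower. DESeq2 called the same 3 genes beside 9.88% of the 22333 genes to which it gave an adjusted p, with adjusted p = 0.00957 for HNRNPC and HNRNPR. The count also depended on how estimated counts ending in exactly 0.5 were rounded, up in the values given here and to the nearest even number in an alternative, under which all 3 genes passed. The choice was made after both sets of calls had been seen.

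In SUGP1 G603N no gene of the 10 passed (edgeR), beside 1.09% of all genes called higher and 2.99% lower. An unadjusted p under 0.05 was found for 2 of the 10, beside 16.3% of all genes, and DESeq2 called 1, beside 7.08%. HNRNPDL was nearest, at 666, 743 and 632 CPM in DMSO and 837, 829 and 837 CPM in PB (log2 0.29 ± 0.09, adjusted p = 0.0663, edgeR). Its groups did not overlap. HNRNPDL passed with the clone as a block (adjusted p = 0.0312, edgeR, beside 2.29% of all genes called higher and 6.96% lower), with DESeq2 (adjusted p = 0.00778) and with the other rounding (adjusted p = 0.0379, edgeR).

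In the SF3b mutants no gene of the 10 passed. In PHF5A 2xTL the log2 fold changes ran from -0.06 to 0.09 (edgeR; unadjusted p under 0.05 for 0 genes, DESeq2 calls for 0), beside 0.00318% of all genes called by edgeR, 1.29% at an unadjusted p under 0.05 and 0.00318% called by DESeq2. HNRNPDL had 675, 648 and 622 CPM in DMSO and 663, 701 and 709.7 CPM in PB, with overlap (log2 0.09 ± 0.09). In SF3B1 T1080I HNRNPDL had 575, 608 and 670.2 CPM in DMSO and 677, 772 and 704 CPM in PB (log2 0.22 ± 0.09, adjusted p = 1, edgeR). Its groups did not overlap. It was the highest change there and the only one with an unadjusted p under 0.05 (DESeq2 calls for 0 genes), beside 0.00318% of all genes called by edgeR, 0.883% at an unadjusted p under 0.05 and 0.00953% called by DESeq2.

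**Figure D2:**
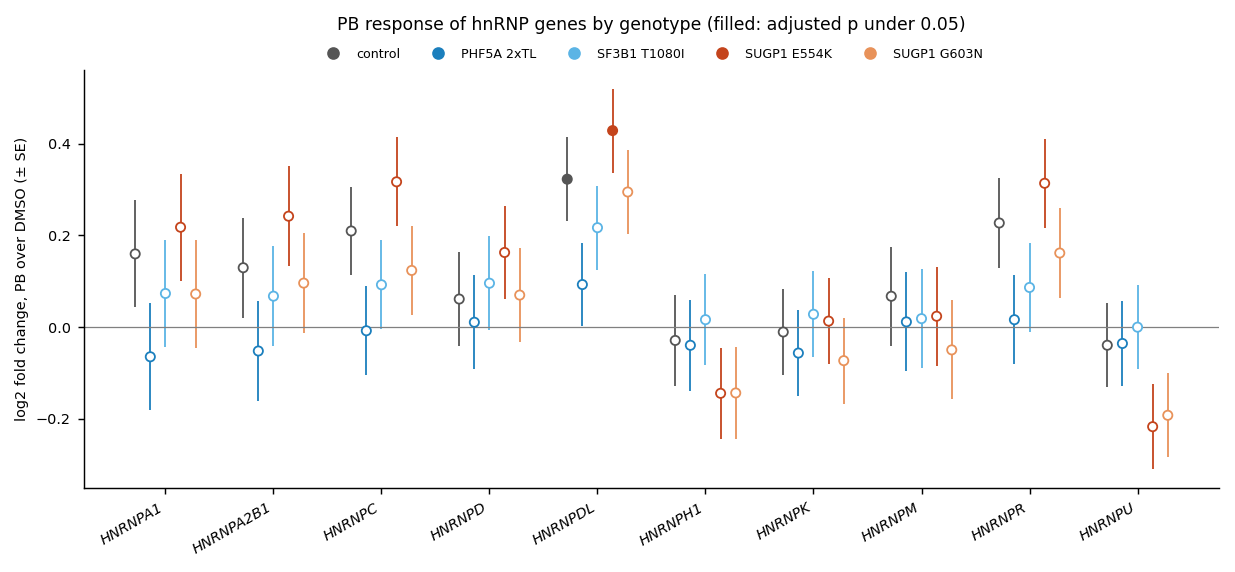
Log2 fold change of PB over DMSO (vertical axis, ± SE) for each of the 10 genes in each genotype, with filled points where the adjusted p is under 0.05. HNRNPDL is filled in control (0.32) and SUGP1 E554K (0.43), and its change in PHF5A 2xTL (0.09) is the lowest of the 5.

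Averaging the responses of the mutants by edited protein gave a smaller error. Over both SUGP1 mutants, 3 of the 10 genes rose and 1 fell, beside 3.91% of all genes called higher and 8.05% lower (edgeR). An unadjusted p under 0.05 was found for 5 of the 10, beside 25.3% of all genes, and DESeq2 called 3, beside 15.8%. HNRNPDL rose 1.28-fold (log2 0.36 ± 0.06, adjusted p = 0.000271), and this call was kept in all 20 alternatives. HNRNPR rose 1.18-fold (log2 0.24 ± 0.07, adjusted p = 0.021) and HNRNPC 1.16-fold (log2 0.22 ± 0.07, adjusted p = 0.0327). The median of the 10 genes was 0.13, against 0.00 over all tested genes.

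HNRNPU was 0.868 times its DMSO level over the SUGP1 mutants (log2 -0.20 ± 0.07, adjusted p = 0.037, edgeR). In SUGP1 E554K it had 1294, 1273 and 1182 CPM in DMSO and 1044, 1152 and 1029.7 CPM in PB. In SUGP1 G603N it had 1247, 1342 and 1228 CPM in DMSO and 985, 1165 and 1190.1 CPM in PB. In both mutants the PB libraries lay below the DMSO libraries, by a narrow margin in each. The call was lost in 16 of 20 alternatives, among them DESeq2 (adjusted p = 0.0623), the other rounding (adjusted p = 0.0696) and 10 of 12 refits without 1 library. It held with the clone as a block (adjusted p = 0.0129). HNRNPU overlaps COX20 on the opposite strand, and whether reads were counted by strand is not known here.

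HNRNPC in SUGP1 G603N had 1128, 1258 and 1013 CPM in DMSO and 1237, 1132 and 1335 CPM in PB, so its groups overlapped there. HNRNPR had 592, 644 and 536 CPM in DMSO and 649, 664 and 668 CPM in PB, without overlap. The HNRNPC mean call over the SUGP1 mutants was lost without clone 3 of SUGP1 G603N (adjusted p = 0.0594), without low-count filtering, on the groups compared alone and without 4 of 12 single libraries (DMSO libraries 1 and 2 of SUGP1 E554K and 1 and 3 of SUGP1 G603N). The HNRNPR call was lost when only these groups were fitted and without SUGP1 E554K DMSO library 3 or PB library 1. Pseudogene rows named after HNRNPC held 4.27 to 10.2% of the summed gene and pseudogene counts, highest in SUGP1 G603N DMSO library 3, where the gene itself was lowest of that group. The share of all counts in processed pseudogenes was 1.22, 1.37 and 2.30% in the SUGP1 G603N DMSO libraries and 2.18, 2.23 and 1.60% in the PB libraries, and its part in these changes was not tested.

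Over both SF3b mutants none of the 10 genes passed (edgeR; unadjusted p under 0.05 for 1 gene, DESeq2 calls for 0), beside 0.00318% of all genes called by edgeR, 1.34% at an unadjusted p under 0.05 and 0.0222% called by DESeq2. The log2 fold change was 0.15 ± 0.06 for HNRNPDL, 0.04 ± 0.07 for HNRNPC, 0.05 ± 0.07 for HNRNPR and -0.02 ± 0.07 for HNRNPU. In SF3B1 T1080I HNRNPC had 952, 1033 and 1085 CPM in DMSO and 1009.7, 1191 and 1073 CPM in PB, and in PHF5A 2xTL 1147, 1084 and 1044 and 1074, 1071 and 1113 CPM. HNRNPU had 1219.5, 1344 and 1297 and 1182, 1408 and 1269 CPM in SF3B1 T1080I. DMSO and PB libraries overlapped in each of these.

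**Figure D3:**
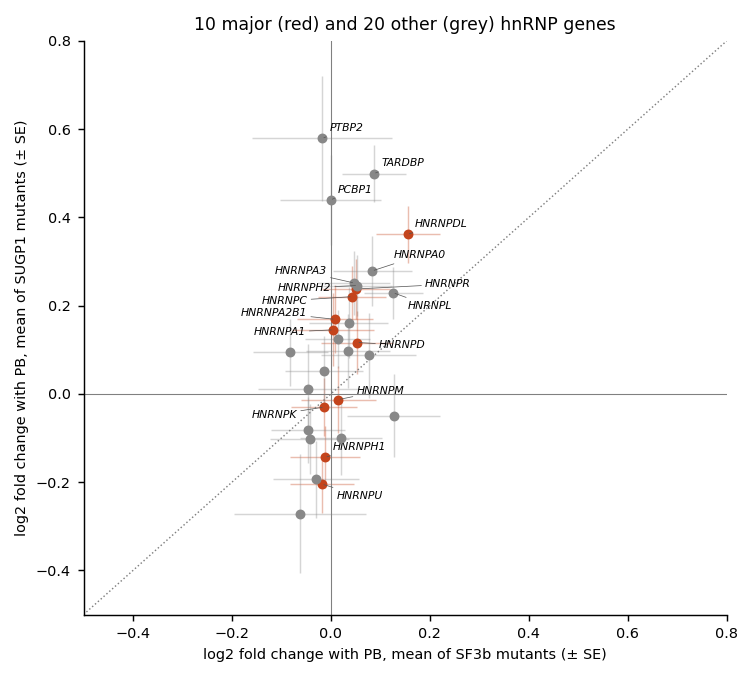
Log2 fold change with PB (± SE) averaged over the SF3b mutants (horizontal axis) and over the SUGP1 mutants (vertical axis) for the 10 genes (red) and 20 other hnRNP genes (grey), with the dotted line marking equal change. HNRNPDL lies at 0.15 and 0.36, and HNRNPU at -0.02 and -0.20.

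The difference in response was tested directly. Between the SF3b and SUGP1 mutants none of the 10 genes differed past the threshold (edgeR; unadjusted p under 0.05 for 1 gene, DESeq2 calls for 0), beside 1.87% of all genes called by edgeR, 11.8% at an unadjusted p under 0.05 and 5.07% called by DESeq2. With the clone as a block none of the 10 passed either, beside 5.95% of all genes. The response of the SF3b mutants minus that of the SUGP1 mutants was -0.21 ± 0.09 for HNRNPDL (adjusted p = 0.348, edgeR), -0.19 ± 0.10 for HNRNPR, -0.18 ± 0.10 for HNRNPC and 0.19 ± 0.09 for HNRNPU. A response past the threshold in the SUGP1 mutants and not in the SF3b mutants was therefore not shown to differ. Each mutant's response was also set against that of control, which is shared by those 4 comparisons. None of the 10 genes passed in any (edgeR; unadjusted p under 0.05 for 0 genes and DESeq2 calls for 0 in each), beside 0.26% of all genes called for PHF5A 2xTL, 0.286% for SF3B1 T1080I, 0.0% for SUGP1 E554K and 0.0% for SUGP1 G603N. In that order the share at an unadjusted p under 0.05 was 6.21, 6.69, 2.04 and 2.77%, and that called by DESeq2 1.49, 1.4, 0.0 and 0.0%. For HNRNPDL these differences were -0.23 ± 0.13, -0.11 ± 0.13, 0.11 ± 0.13 and -0.03 ± 0.13 in that order.

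The HNRNPDL change was also read within each clone, and in control between same-numbered replicates of the 1 line. The log2 CPM of PB minus the same-numbered DMSO library was 0.42, 0.33 and 0.22 in the control replicates, 0.35, 0.58 and 0.35 in SUGP1 E554K and 0.33, 0.16 and 0.41 in SUGP1 G603N. It was 0.24, 0.34 and 0.07 in SF3B1 T1080I and -0.02, 0.11 and 0.19 in PHF5A 2xTL. HNRNPDL was thus higher with PB in 3 of 3 control replicates, 6 of 6 SUGP1 clones and 5 of 6 SF3b clones. HNRNPR gave the same counts, and HNRNPC was higher in 3 of 3, 5 of 6 and 3 of 6. HNRNPU was higher in 0 of 6 SUGP1 clones, with -0.31, -0.14 and -0.20 in SUGP1 E554K and -0.34, -0.20 and -0.04 in SUGP1 G603N. These counts come from the same libraries as the tests, so they are not independent support. How many of all genes gave such counts was not determined.

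**Figure D4:**
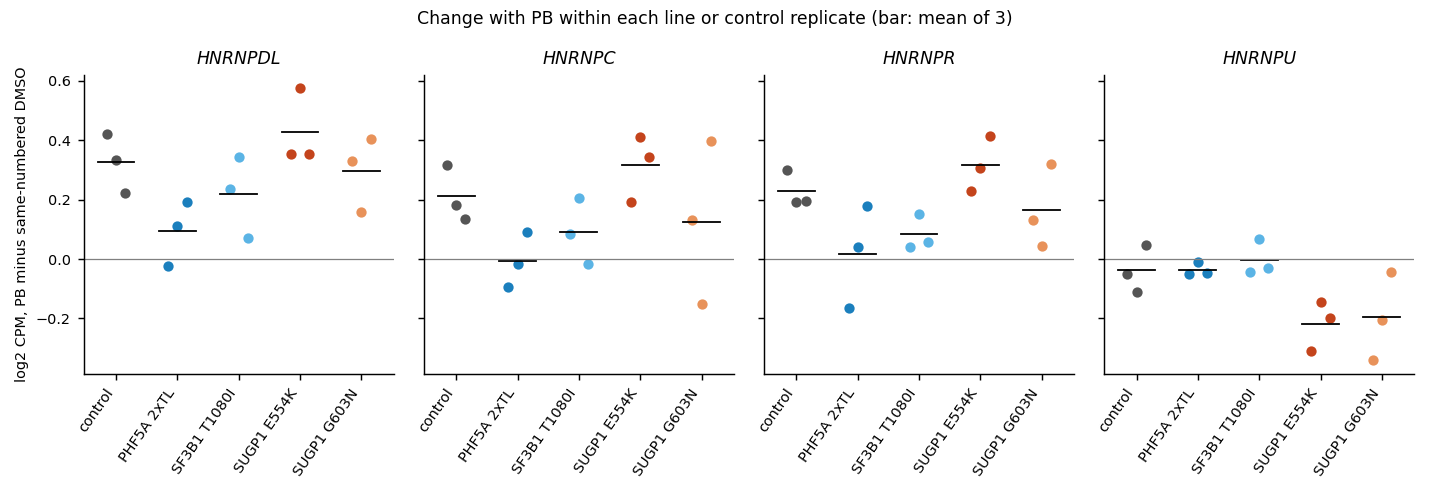
Log2 CPM of each PB library minus the same-numbered DMSO library (vertical axis) for HNRNPDL, HNRNPC, HNRNPR and HNRNPU, with the mean of 3 as a bar. HNRNPDL points run from 0.16 to 0.58 in the SUGP1 clones and HNRNPU points from -0.34 to -0.04.

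Ordered by group mean, HNRNPDL stood at 896 ± 40.5 CPM in SUGP1 E554K with PB, 875 ± 21.7 in control with PB and 834 ± 4.88 in SUGP1 G603N with PB (SD, n = 3 each). The ranges of the first 2 groups overlapped. SF3B1 T1080I with PB followed at 718 ± 48.9 CPM, then control DMSO at 699.8 ± 63.8 and PHF5A 2xTL with PB at 691 ± 24.6. The other DMSO groups stood at 680.4 ± 56.8 (SUGP1 G603N), 666 ± 29.6 (SUGP1 E554K), 648 ± 26.4 (PHF5A 2xTL) and 618 ± 48.5 CPM (SF3B1 T1080I). From SF3B1 T1080I with PB downwards each neighbour overlapped the next.

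The 6 genes that passed in no comparison were not all of one sign. Over the SUGP1 mutants the log2 change was 0.17 ± 0.08 for HNRNPA2B1, 0.14 ± 0.08 for HNRNPA1 and 0.12 ± 0.07 for HNRNPD. It was -0.01 ± 0.08 for HNRNPM, -0.03 ± 0.07 for HNRNPK and -0.14 ± 0.07 for HNRNPH1. HNRNPD, which lies on the same strand of chromosome 4 from 82352498 to 82374503 (hg38), close to HNRNPDL, thus stayed outside the threshold. HNRNPA1 is uncertain, since 74 pseudogene rows named after it held 12.1 to 21.3% of the summed counts and fractional counting can divide reads among copies. HNRNPA2B1 overlaps CBX3 and NFE2L3 on the opposite strand, so its counts may include theirs or the reverse.

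Across the 30 libraries, HNRNPC with HNRNPDL had the highest Pearson r of log2 CPM among the 45 pairs of the 10 genes (0.889, Spearman 0.858), and HNRNPA1 with HNRNPC the highest Spearman value (0.883, Pearson 0.863). HNRNPDL with HNRNPU was lowest by both (Pearson -0.537, Spearman -0.552). These libraries share clones and treatments, so the values describe them only.

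Of all tested genes with at least 4 CPM, those most like HNRNPDL over the 30 libraries were TRA2B (r = 0.926), SRSF7 (0.911) and TARDBP (0.9), with Spearman values of 0.858, 0.819 and 0.825. TRA2B and SRSF7 encode SR-type splicing regulators, and TARDBP encodes the RNA-binding protein TDP-43. Over the 15 DMSO libraries alone the values were 0.634, 0.639 and 0.313, against 0.947, 0.924 and 0.957 over the 15 PB libraries. Those most like HNRNPR were NSA2 (0.885), EIF4E2 (0.876) and TARDBP (0.872), those most like HNRNPC were RPL14 (0.91), ISCU (0.908) and NDUFA12 (0.906), and those most like HNRNPU were VPS54 (0.886), LINC01515 (0.878) and TPR (0.867).

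A list of 20 other hnRNP genes was read beside the 10. In control 1 of the 20, TARDBP, rose with PB, from 323, 341 and 344 to 461, 455 and 467 CPM (log2 0.46 ± 0.09, adjusted p = 0.00292, edgeR), beside 0.987% of all genes called higher and 3.31% lower. It was also the 1 gene of the list that rose in SUGP1 E554K (0.55 ± 0.09) and in SUGP1 G603N (0.45 ± 0.09), beside 1.02 and 1.09% of all genes called higher and 3.3 and 2.99% lower. Its PB libraries lay above its DMSO libraries in all 3 genotypes. When only the compared groups were fitted, TARDBP did not pass in SUGP1 E554K (adjusted p = 0.0704) or in SUGP1 G603N (adjusted p = 0.179, edgeR). In control, SUGP1 E554K and SUGP1 G603N, in that order, 7, 7 and 6 of the 20 had an unadjusted p under 0.05, beside 13.8, 16.1 and 16.3% of all genes. DESeq2 called 4, 4 and 3 of the 20, beside 8.95, 9.88 and 7.08%. In the SF3b mutants 0 of the 20 passed singly or averaged (edgeR; DESeq2 calls for 0 in each, unadjusted p under 0.05 for 0 genes in each mutant and 1 in their average). Beside these stood 0.00318% of all genes called by edgeR in each, 0.00318 to 0.0222% by DESeq2 and 0.883 to 1.34% at an unadjusted p under 0.05. With the clone or control replicate as a block, TARDBP was joined by HNRNPH2, HNRNPL and PTBP2 in control, by HNRNPA0, HNRNPA3, PTBP2 and PCBP1 in SUGP1 E554K, and by HNRNPL, PTBP2 and PCBP1 in SUGP1 G603N, all higher. Under the block 9.34% of all genes were called in either direction in control. In SUGP1 E554K 3.13% were called higher and 8.18% lower, and in SUGP1 G603N 2.29 and 6.96%. The genes named only under the block were chosen after their values were seen. In PHF5A 2xTL, TARDBP had 371, 346 and 352 CPM in DMSO and 357, 359 and 356 CPM in PB. In SF3B1 T1080I TARDBP had 329, 348 and 352 CPM in DMSO and 368, 417 and 374 CPM in PB. Those groups did not overlap, though the gene did not pass there (log2 0.17 ± 0.09).

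Over the SUGP1 mutants 7 of the 20 rose and 0 fell, beside 3.91% of all genes called higher and 8.05% lower (edgeR). An unadjusted p under 0.05 was found for 8 of the 20, beside 25.3% of all genes, and DESeq2 called 7, beside 15.8%. By lowest p the 7 were TARDBP (log2 0.50 ± 0.07), PCBP1, a KH-domain protein that binds cytosine-rich RNA (0.44 ± 0.10), PTBP2, the neural relative of the polypyrimidine tract protein PTBP1 (0.58 ± 0.14), and HNRNPL, which binds CA repeats (0.23 ± 0.06). The other 3, named after their values were seen, were HNRNPA0 (0.28 ± 0.08), HNRNPA3 (0.25 ± 0.07) and HNRNPH2 (0.25 ± 0.07). The calls of TARDBP, PCBP1 and PTBP2 were kept in all 20 alternatives. For PTBP2, however, DMSO and PB libraries overlapped in both SUGP1 mutants. Its log2 change within clones was -0.04, 0.77 and 0.87 in SUGP1 E554K and 0.24, 0.30 and 1.40 in SUGP1 G603N. The calls of the other 4 were lost when only these groups were fitted (adjusted p 0.0666 to 0.077, edgeR), and those of HNRNPL and HNRNPH2 also without the filter on low counts. Leaving out SUGP1 G603N DMSO library 1 ended the calls of HNRNPA0, HNRNPA3 and HNRNPH2. Leaving out a SUGP1 E554K library ended that of HNRNPA0 (DMSO library 1), HNRNPA3 (DMSO library 2) and HNRNPH2 (DMSO library 2 or PB library 1). With the clone as a block 7 of the 20 rose and 2 fell, HNRNPAB and PTBP3, beside 7.25% of all genes called higher and 13.4% lower.

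In DMSO 0 of the 20 passed in each of the 5 comparisons (edgeR; DESeq2 calls for 0, unadjusted p under 0.05 for at most 1). Over all genes 0.0 to 0.00953% were called by edgeR there, 0.00318 to 0.223% by DESeq2, and 3.62 to 5.23% had an unadjusted p under 0.05. Against the response of control 0 of the 20 passed in each mutant, beside 0.0 to 0.286% of all genes (edgeR). In PHF5A 2xTL 3 of the 20 had an unadjusted p under 0.05, beside 6.21% of all genes, and DESeq2 called 1, beside 1.49%. In the other mutants at most 1 had an unadjusted p under 0.05, beside 2.04 to 6.69% of all genes, and DESeq2 called 0, beside 0.0 to 1.4%. The median over the 20 for the SUGP1 mutants was 0.10, against 0.13 over the 10 and 0.00 over all tested genes. All 30 hnRNP genes have medians of at least 49.9 CPM, so the filter on low counts removed none.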

How the data were processed

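Polyadenylated RNA was sequenced as paired reads, per the labels' protocols. The submitters' processing notes name the hg38 build, STAR, UMI-tools and SAMtools 1.10. Which program counted reads, and by which strand rule, is not known here. The authors deposited estimated counts per gene, not normalized, of which 65.5% above 0 were not whole. The table's gene length, another value the authors deposited, was used for values per kb. Symbols were matched for 61369 of 61487 identifiers, and annotation was GENCODE 29.

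Estimated counts were rounded, with values ending in exactly 0.5 taken upward, the rule that leaves 31495 genes. This rule was set after calls under both rules had been seen. One edgeR 4.0.16 quasi-likelihood model (R 4.3.3, TMM, filterByExpr, a mean per group) gave 17 contrasts, each adjusted over 31495 genes and called under 0.05. Standard errors are approximate. log2 CPM used a prior count of 2. The test was checked on simulated data. Members, lists and the naming rule (all 10 members, at most 4 other hnRNP genes per contrast by p, 3 most alike genes per called member) were chosen with earlier results of these data known.

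Same-numbered mutant libraries share a clone per the labels, and the correlation of their deviations was 0.424 to 0.837 (control 0.212 to 0.436) over 11999 genes, so PB contrasts were also fitted with a replicate block. Alternatives were DESeq2 1.42.0, RLE factors, no filter, the compared groups alone, pseudogene counts added, each library left out, and 2 chosen after seeing the data (the rounding, and clone 3 of SUGP1 G603N left out).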

Additional observations from a re-analysis of the deposited data

Results flagged for a closer look

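The response of TARDBP, one of the 20 other hnRNP genes, differed between the SF3b and the SUGP1 mutants by a direct test. The log2 change of TARDBP with PB was 0.09 ± 0.07 over the SF3b mutants and 0.50 ± 0.07 over the SUGP1 mutants (± SE), a difference of -0.41 ± 0.09 (adjusted p = 0.0143, edgeR). Within the SF3b average, the change was 0.00 ± 0.09 in PHF5A 2xTL and 0.17 ± 0.09 in SF3B1 T1080I. The log2 change within clones ran from -0.06 to 0.26 in the SF3b mutants and from 0.26 to 0.77 in the SUGP1 mutants, so the ranges meet at their ends. The call was kept in all 32 alternatives (adjusted p 7.87e-05 to 0.0477). With the clone as a block 3 of the 20 genes passed in this comparison, TARDBP, PTBP2 and PCBP1, beside 5.95% of all genes, against 1 of the 20 and 1.87% of all genes without the block.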

How the results depend on the processing

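Of 281 alternatives to the 17 counts of the 10 genes called, 258 were within 1.5 times the value reported or stayed at 0. Most of these were in comparisons with 0 genes reported and 0 in every alternative. Where the count moved, fewer stayed: 7 of 13 alternatives in control and 7 of 13 in SUGP1 E554K. The others were 10 of 14 in SUGP1 G603N and 13 of 20 over the SUGP1 mutants. All 358 alternatives to 20 single-gene results kept their direction. These results were picked because they were called in some setting, and the alternatives share most libraries, so this is not independent support. The number of the 10 genes called with PB in control was 0 without the filter on low counts (1 reported). In SUGP1 E554K it was 3 with RLE factors, DESeq2, the replicate block or values ending in 0.5 rounded to even, 2 with pseudogene counts added and 0 on the groups compared alone (1 reported). In SUGP1 G603N it was 1 with RLE factors, DESeq2, the replicate block or values ending in 0.5 rounded to even (0 reported). Over the SUGP1 mutants it was 2 without the filter, 1 on the groups compared alone and 2 without clone 3 of SUGP1 G603N (4 reported). Leaving out 1 library gave 0 to 1 in control, 1 to 1 in SUGP1 E554K, 0 to 0 in SUGP1 G603N and 2 to 3 over the SUGP1 mutants. The replicate block changed no other member's call. Among the alternatives, shares of all genes called are given above only for the replicate block and DESeq2. Whether the counts under the others moved with calls over all genes was not tested. The cause of the changes was not tested. With 3 libraries per group the median standard error of a member's log2 change was 0.10, and 0.14 for a difference in response to control, which limits the differences that these libraries can show.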
